A study of Mus musculus with 44 samples.

Results

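The genes described here are 50 members of the Wnt pathway, listed by name with no threshold on a measured value, although earlier results of these data were known when the list was drawn up: 8 Wnt ligands, 2 genes of ligand secretion, 13 receptors and co-receptors, 4 genes of receptor turnover, 9 cytoplasmic signal carriers, 4 nuclear factors of the TCF and LEF family and 10 secreted antagonists. All 50 symbols were found among the 46831 genes of the count table. Wnt ligands are lipid-modified secreted proteins that bind a Frizzled receptor together with LRP5 or LRP6. In the canonical branch the bound receptors stop the degradation of β-catenin, which then joins TCF and LEF factors at target genes, while ROR2 and RYK receive ligands of the non-canonical branches. In the growth plate and in bone, Wnt signals set the balance between cartilage and bone formation, and secreted antagonists of the SFRP, DKK, WIF1 and sclerostin families limit them.

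The study asked how m6A, the most common internal modification of mRNA, is laid out over the skeletal stem cell hierarchy. Cells of P3 mice (day 3 after birth, strain C57Bl6 in the labels and C57BL/6J in the study's methods, either sex) were taken from the ends of lower limb long bones freed of marrow and periosteum, depleted of CD45, Ter119 and Tie2 positive cells, and sorted by CD51, Thy1.1 and Thy1.2, 6C3, CD105 and CD200. The 8 sorted populations were the skeletal stem cell (SSC), pBCSP (pre-BCSP in the labels) and BCSP (bone, cartilage and stromal progenitors), and the downstream PCP, THY, BLSP, 6C3 and HEC populations. From each, RNA was captured with an m6A antibody (IP) or sequenced without capture (input) by SLIM-seq, a low-input method in which whole RNA is captured. The IP to input ratio is therefore a value of a whole gene and places no site. Control mice, called WT, were Mettl3 fl/fl per the study's methods, and Mettl3cko mice were Mettl3 fl/fl;Col2a1-Cre, in which METTL3, the catalytic subunit of the m6A methyltransferase, is deleted in cells that have expressed Col2a1. There were 44 libraries: each WT population, and Mettl3cko SSC, pBCSP and BCSP, gave 2 of IP and 2 of input.

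Input libraries held 19795666 to 44046651 counts and IP libraries 16480027 to 35856651. Since every library carries wild type in its genotype field, Mettl3cko rests on the titles and on the KO in the column names of the counts. Mettl3 mRNA did not differ detectably in the libraries labelled Mettl3cko, at 16.6 and 18.8 CPM (TMM-scaled counts, relative to library size) in SSC against 15.1 and 15.6 in WT, 22.2 and 22.8 against 11.9 and 16.1 in pBCSP and 16.4 and 17.8 against 18.1 and 19.9 in BCSP. The mean log2 fold change was 0.25 ± 0.15 (edgeR adjusted p = 0.362), and a count of the whole gene does not test a deleted exon. The study reports loss of Mettl3 in these mice by qRT-PCR and Western blot, and less m6A by dot blot. Thy1, a protein of the sort, held 17.4 to 34.8 CPM in PCP, THY and BLSP and at most 0.43 CPM in the other WT populations, and Enpep, which encodes 6C3, held 41.0 to 55.4 CPM in 6C3 and HEC and at most 8.62 CPM elsewhere. The 6 chondrocyte markers summed to 88300 to 104000 CPM in the 6 SSC, pBCSP and BCSP libraries, while downstream libraries held 7820 to 99000 CPM, where 6C3 and HEC were high (42400 to 99000) and PCP, THY and BLSP low (7820 to 20500). The 6 osteoblast markers summed to 5430 to 11200 CPM and 66700 to 142000 CPM in the same order. This sum follows Col1a1, the only one lower in SSC, pBCSP and BCSP (-3.66 on the log2 scale). Bglap (2.3), Ibsp (1.78), Sp7 (0.78), Alpl (0.5) and Runx2 (0.46) were higher there. A pair of libraries stood apart within their groups, the first WT 6C3 input library and the first Mettl3cko pBCSP input library, each with higher Gsk3b, Znrf3 and Tcf7l2 than its replicate. The study calls replicates biologically independent, but the labels do not say which animals were pooled, so p-values measure the spread between these libraries. In sorted bulk RNA, fewer cells of a type and less RNA per cell cannot be told apart.

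Most of the 50 members were expressed in these cells. Per kilobase of exon, 36 of the 50 members lay above the median of all genes tested, 1.51 CPM per kb, in the mean of the 8 WT populations. The list was drawn up with earlier results of these data known. Pathway genes near 0 CPM, such as Wnt3a and Wnt8b, are outside it, so this share does not speak for the whole pathway. Wif1, which encodes a secreted protein that binds Wnt ligands, stood far above the rest at 683 CPM per kb. Dkk3, a divergent member of the Dickkopf family, followed at 116 and the Frizzled receptor gene Fzd9 at 55.0 CPM per kb. In the other roles the highest levels were those of Tcf7l2 among the nuclear factors (34.6 CPM per kb), Gsk3b, the kinase of the β-catenin destruction complex, among the cytoplasmic genes (22.1), Wls, the carrier of Wnt ligands to the cell surface (13.8), Lgr4, a receptor of R-spondins (12), and Wnt9a among the ligands (8.59). In this mean no listed ligand gene exceeded Wnt9a, and Wnt2b was at 0.272 CPM per kb. By population, Wnt9a lay below Wnt11 and Wnt5b in SSC (1.52 against 4.29 and 2.19 CPM per kb) and pBCSP (3.36 against 4.88 and 5.99). The same held in BCSP (0.929 against 4.89 and 5.64). In PCP, Wnt9a lay below Wnt5b (9.44 against 10.6), and in THY, BLSP, 6C3 and HEC it was the highest listed ligand gene. Rnf43 (0.0152), Sost (0.106) and Dkk1 (0.163 CPM per kb) were the lowest, and the filter on low counts left out Rnf43, so that 49 members were tested in mRNA.

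Among the 8 WT populations, 31 of 49 members differed in mRNA at an edgeR adjusted p under 0.05, against 40.1% of the 20060 genes tested. They were 6 of 8 ligands, 8 of 13 receptors, all 3 tested genes of receptor turnover, 4 of 9 cytoplasmic genes, 2 of 4 nuclear factors and 8 of 10 antagonists. The secretion genes Wls and Porcn, whose product attaches the lipid to Wnt ligands, were not among them, and Wls lay between 79.6 and 167 CPM in all 16 libraries.

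**Figure D1:**
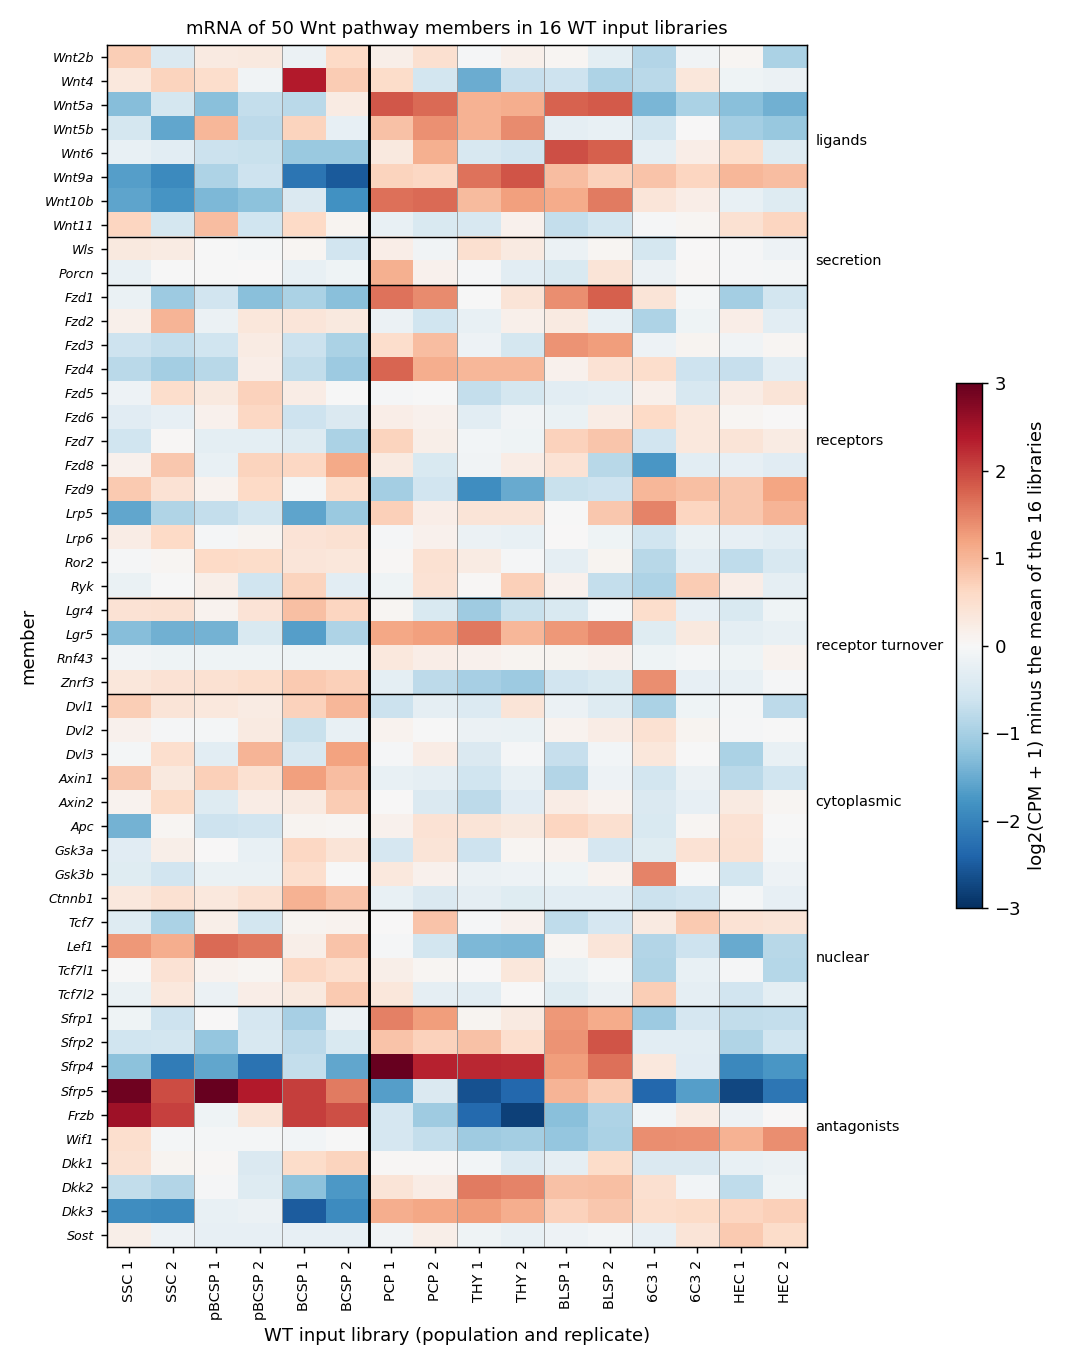
mRNA of the 50 members (rows, grouped by role) in the 16 WT input libraries (columns), as log2(CPM + 1) minus the mean of the 16 libraries, with red for higher and blue for lower values and a thick line between SSC, pBCSP, BCSP and the downstream populations. Sfrp5 and Frzb are red on the left, Wnt9a, Wnt10b, Lgr5, Sfrp4 and Dkk3 on the right, and Wif1 and Fzd9 are red in 6C3 and HEC.

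When SSC, pBCSP and BCSP were set against the mean of the 5 downstream populations, 18 of 49 members were higher (23.1% of all genes tested) and 18 were lower (28.3%). The median log2 fold change of the members was -0.01 and that of all genes -0.11. In 3 members every one of the 6 SSC, pBCSP and BCSP libraries lay above every one of the 10 downstream libraries, as in 7.89% of all genes, and in 5 members every one lay below, as in 8.62%. Members of both directions were found among the ligands, receptors, genes of receptor turnover, cytoplasmic genes, nuclear factors and antagonists.

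Of the 8 ligands, 4 were lower in SSC, pBCSP and BCSP and 1 was higher. Wnt9a, which acts in joint formation, ranged from 2.64 to 12.5 with a median of 5.05 CPM in the 6 SSC, pBCSP and BCSP libraries and from 31.1 to 75.8 with a median of 37.2 CPM in the 10 downstream libraries. The groups did not overlap, THY was highest and BCSP lowest, and the log2 difference was -2.84 ± 0.13 (SE, edgeR adjusted p = 1.8e-10). Wnt10b, an activator of bone formation, ranged from 1.06 to 4.37 with a median of 1.62 CPM in the first group and from 4.55 to 22.5 with a median of 13.8 CPM downstream, again with no overlap, a log2 difference of -2.62 ± 0.26 and an edgeR adjusted p of 4.64e-07. Wnt5a, the main non-canonical ligand of the growth plate, was high in PCP (63.0 and 55.9 CPM), BLSP (58.9 and 61.9) and THY (34.8 and 36.4). It was low in 6C3 (5.73 and 8.03 CPM) and HEC (6.33 and 5.42), which lay in or below the range of the stem and progenitor libraries (6.24 to 19.8). The direction of the Wnt5a difference thus turned with the downstream populations taken: it was -1.13 ± 0.18 (edgeR adjusted p = 9.27e-05) against all 5, -2.33 ± 0.21 (adjusted p = 1.6e-07) against PCP, THY and BLSP alone and 0.66 ± 0.23 (adjusted p = 0.0313) against 6C3 and HEC alone, an edgeR contrast chosen after the data were seen. Wnt4, a ligand of cartilage and joints, was the ligand higher in SSC, pBCSP and BCSP. It ranged from 4.56 to 30 with a median of 8.09 CPM, and downstream from 1.12 to 7.73 with a median of 2.98 CPM, its highest library was the first of BCSP (the second held 9.13 CPM), and the log2 difference was 1.46 ± 0.30 (edgeR adjusted p = 0.000817). Wnt6 was called lower, but held at most 0.864 CPM in SSC and pBCSP and no counts in BCSP, so no fold is given. It was highest in BLSP (7.26 and 6.54 CPM) and PCP (1.64 and 3.52 CPM).

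The receptors divided 6 to 5. Lrp5, the co-receptor whose variants alter bone mass in people, was lower in SSC, pBCSP and BCSP, where it ranged from 3.92 to 9.04 with a median of 6.39 CPM, than downstream, where it ranged from 13.7 to 40.2 with a median of 22.8 CPM. No libraries overlapped, 6C3 was highest, and the log2 difference was -1.89 ± 0.20 (edgeR adjusted p = 1.33e-06). Its paralog Lrp6 went the other way by a smaller amount, ranging from 36.2 to 56.2 with a median of 46.2 CPM, and downstream from 24.1 to 40.6 with a median of 32.4 CPM. The Lrp6 ranges overlapped, and the log2 difference was 0.48 ± 0.10 (edgeR adjusted p = 0.00115). Of the Frizzled genes, Fzd1 (-1.43), Fzd4 (-1.18), Fzd3 (-0.94) and Fzd7 (-0.70) were lower on the log2 scale. Fzd8 (1.08), Fzd9 (0.66), Fzd2 (0.62) and Fzd5 (0.56) were higher, as was Ror2 (0.51), the receptor of WNT5A. Fzd1 was highest in PCP (123 and 105 CPM) and BLSP (103 and 137 CPM) against 15.7 to 33.7 CPM in the stem and progenitor libraries. Fzd4 was highest in PCP and THY, and its difference no longer passed the test against 6C3 and HEC alone (-0.48 ± 0.24, edgeR adjusted p = 0.117). Fzd9 was highest in HEC (187 and 242 CPM) and 6C3 (212 and 199 CPM), all above SSC (183 and 144 CPM), and lowest in THY (28.5 and 36.5 CPM). Against 6C3 and HEC alone Fzd9 was lower in SSC, pBCSP and BCSP (-0.56 ± 0.16, edgeR adjusted p = 0.0101). The Fzd8 call, at 2.42 to 7.75 CPM against 0.181 to 4.34, was lost (edgeR adjusted p from 0.0537 to 0.0993) when any of 7 libraries was left out, namely the second of SSC, pBCSP, BCSP, PCP, BLSP or HEC or the first of THY.

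Genes that set the amount of receptor at the surface also went both ways. Lgr5, a receptor of R-spondins and a marker of several epithelial stem cells, was lower in SSC, pBCSP and BCSP, ranging from 2.25 to 6.37 with a median of 3.00 CPM, than downstream, ranging from 6.85 to 29.4 with a median of 20.6 CPM. The groups did not overlap, PCP, THY and BLSP were highest, and the log2 difference was -2.14 ± 0.22 (edgeR adjusted p = 8.53e-07). Its relative Lgr4 was higher by 0.78 ± 0.14 (edgeR adjusted p = 0.000196), ranging from 71.1 to 124 with a median of 90 CPM, and downstream from 30.9 to 95.4 with a median of 52.0 CPM with overlap. Znrf3, the ubiquitin ligase that removes Frizzled receptors and that R-spondins oppose, was higher by 0.84 ± 0.17 (edgeR adjusted p = 0.000798). It held 98.7 to 135 CPM in the stem and progenitor libraries and 35.8 to 75.5 CPM downstream apart from the first 6C3 library, at 207 CPM, and against 6C3 and HEC alone the difference was 0.21 ± 0.22 (edgeR adjusted p = 0.477).

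In the cytoplasm, Ctnnb1, which encodes β-catenin, ranged from 83.2 to 139 with a median of 92.1 CPM in SSC, pBCSP and BCSP and from 42.3 to 63.9 with a median of 53.4 CPM downstream. The groups did not overlap, BCSP was highest, and the log2 difference was 0.94 ± 0.09 (edgeR adjusted p = 3.77e-07). Axin1, the scaffold of the destruction complex, showed the same separation, ranging from 11.2 to 22.4 with a median of 15.8 CPM, and downstream from 4.34 to 7.88 with a median of 6.48 CPM, with a log2 difference of 1.30 ± 0.17 (edgeR adjusted p = 8.7e-06). Dvl1 (0.99) and Dvl3 (0.65), which carry the signal from the receptor, were also higher, and Apc (-0.65), another scaffold of the complex, was lower. Axin2, a feedback inhibitor and a direct target widely read as a sign of canonical signalling, was low everywhere, at 2.54 to 6.85 CPM against 1.69 to 4.57 CPM. Its ranges overlapped and its difference of 0.55 ± 0.23 did not pass the test (edgeR adjusted p = 0.0513).

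Of the nuclear factors, Lef1 was higher in SSC, pBCSP and BCSP, ranging from 34.5 to 101 with a median of 70.3 CPM, and downstream from 10 to 39.1 with a median of 17.9 CPM. It was highest in pBCSP (100.5 and 92.6 CPM), the lowest BCSP library lay within the range of BLSP (31.4 and 39.1 CPM), and the log2 difference was 1.85 ± 0.14 (edgeR adjusted p = 2.92e-08). Tcf7l1 was higher (0.49) and Tcf7 lower (-0.44) by smaller amounts. Tcf7l2, the most abundant of the family, held 196 to 506 CPM across the libraries and did not pass the test (edgeR adjusted p = 0.105).

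The secreted antagonists held large differences in both directions. Sfrp5, a soluble Frizzled-like decoy, ranged from 68.4 to 233 with a median of 111 CPM in SSC, pBCSP and BCSP and from 2.58 to 47.2 with a median of 5.41 CPM downstream. The groups did not overlap, BLSP was the highest downstream population (47.2 and 39.5 CPM), and the log2 difference was 4.02 ± 0.23 (edgeR adjusted p = 1.5e-09). Frzb, a related decoy found in cartilage, ranged from 60.2 to 394 with a median of 268 CPM, and downstream from 8.72 to 79.1 with a median of 40.6 CPM, with a log2 difference of 2.41 ± 0.13 (edgeR adjusted p = 1.09e-09). Frzb was high in SSC (394 and 279 CPM) and BCSP (282 and 257) but not in pBCSP (60.2 and 87.0), which overlapped 6C3 (62.2 and 79.1) and HEC (59.4 and 67.0).

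The other SFRP genes were lower against all 5 downstream populations. Sfrp1 differed by -0.64 ± 0.15 on the log2 scale (edgeR adjusted p = 0.0023), by -1.32 ± 0.17 against PCP, THY and BLSP alone and, with the sign turned, by 0.39 ± 0.19 against 6C3 and HEC alone (edgeR adjusted p = 0.107). Sfrp4 differed by -2.59 ± 0.23 (edgeR adjusted p = 1.8e-07), with 237 and 113 CPM in PCP and 108 and 106 in THY against 3.95 to 12.8 CPM in the stem and progenitor libraries. HEC (4.96 and 5.82 CPM) lay within the stem and progenitor range, and against 6C3 and HEC alone neither Sfrp4 (-0.64 ± 0.26, edgeR adjusted p = 0.0644) nor Sfrp2 (-0.13 ± 0.17, edgeR adjusted p = 0.574) passed the test, while Sfrp2 was -1.09 ± 0.14 (edgeR adjusted p = 6.72e-06) against all 5. Dkk3 ranged from 51.7 to 261 with a median of 79.6 CPM in SSC, pBCSP and BCSP and from 426 to 711 with a median of 501 CPM downstream without overlap. Within the former, pBCSP (253 and 261 CPM) lay above SSC (80.2 and 77.5) and BCSP (51.7 and 79.0), and the log2 difference was -2.29 ± 0.11 (edgeR adjusted p = 2.81e-10). Dkk2, which blocks LRP5 and LRP6, was also lower (-1.81 ± 0.24), with 13.5 and 12.8 CPM in THY against 0.482 to 3.77 CPM. Sost, which encodes the osteocyte product sclerostin, was called lower at no more than 1.05 CPM in any library, and not without the second 6C3 library (edgeR adjusted p = 1). Dkk1 was called higher at no more than 1.16 CPM, and the call was lost (edgeR adjusted p from 0.0537 to 1) in 11 of 16 fits that left out 1 library. For both, no fold is given.

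Wif1 was the antagonist whose level did not follow the stem and downstream division. It was highest in 6C3 (3617 and 3527 CPM) and HEC (2809 and 3601), intermediate in SSC (1937 and 1321), pBCSP (1313 and 1307) and BCSP (1295 and 1363), and lowest in THY (654 and 673) and BLSP (609 and 711). Both 6C3 and both HEC libraries lay above every other library, and PCP (968 and 829) lay between the stem and progenitor libraries and THY. Apart from the first SSC library, the SSC, pBCSP and BCSP libraries lay between 1295 and 1363 CPM. The 8 populations differed (edgeR adjusted p = 3.17e-07), whereas the stem and downstream means did not differ detectably (0.07 ± 0.10, adjusted p = 0.631). The summed chondrocyte markers, like Wif1, were higher in 6C3 and HEC than in PCP, THY and BLSP, and the part of cell composition in these levels was not tested.

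**Figure D2:**
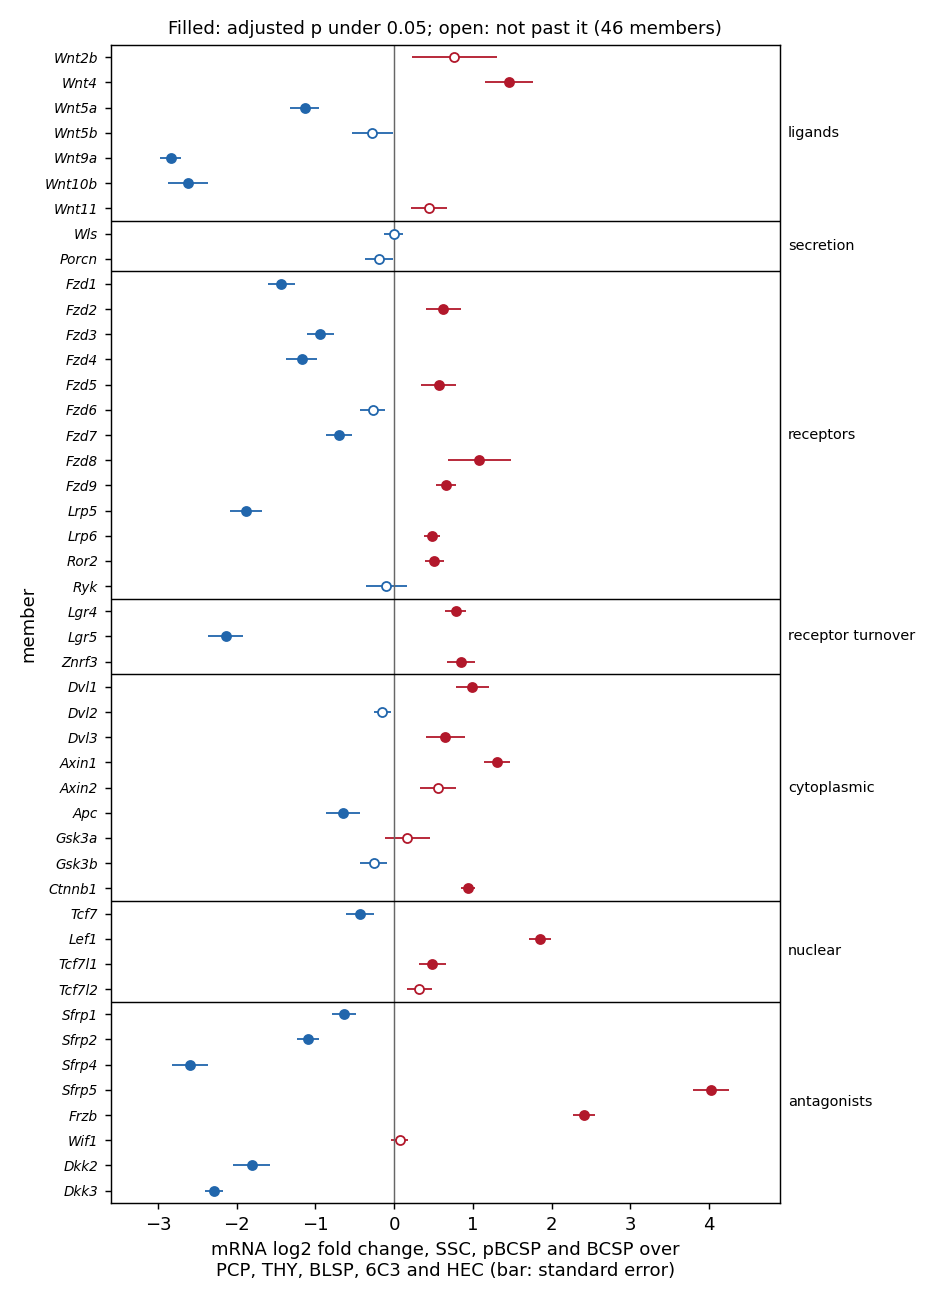
log2 fold change of mRNA (x axis, edgeR, with bars of 1 standard error) of 46 members (y axis, by role) in SSC, pBCSP and BCSP over the 5 downstream populations of WT, without Rnf43, Sost, Dkk1 and Wnt6, for which no fold is given. Filled points passed an adjusted p of 0.05. Sfrp5 lies farthest right at 4.02 and Wnt9a farthest left at -2.84.

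Split by downstream population, 14 members were higher (21.5% of all genes) and 17 lower (29.2%) against PCP, THY and BLSP alone, and 14 higher (17.4%) and 14 lower (23.5%) against 6C3 and HEC alone. Both contrasts share the SSC, pBCSP and BCSP libraries. Against 6C3 and HEC alone the sign turned in Wnt5a, Fzd9 and Sfrp1, and the calls of Fzd2, Fzd4, Fzd5, Znrf3, Dvl3, Apc, Sfrp2 and Sfrp4 were lost. Against PCP, THY and BLSP alone the calls of Fzd2, Fzd8, Ror2, Dvl3, Tcf7, Tcf7l1, Dkk1 and Sost were lost. Marker lists moved with the main contrast: all 6 chondrocyte markers were higher in SSC, pBCSP and BCSP, all 6 erythroid and all 4 osteoclast markers were lower, and of the 6 osteoblast markers Col1a1 was lower and the other 5 higher. Erythroid markers summed to 0.705 to 5.54 CPM in the former and 17.2 to 145 CPM downstream, and osteoclast markers to 95.3 to 139 CPM and 112 to 632 CPM. Of the tendon and joint markers Scx (-4.10 on the log2 scale) and Tnmd (-3.38) were lower and Prg4 (1.71) and Gdf5 (0.99) higher, with sums of 1240 to 3270 CPM and 848 to 8220 CPM. Of the muscle markers Tnnt3 was higher (2.72), Myh3 lower and the other 2 not past the test, with sums of 20.9 to 53 CPM and 5.35 to 12.8 CPM. Of the leukocyte markers Ptprc and Tyrobp were lower, Cd74 higher (1.43) and Lyz2, S100a8 and S100a9 not past the test, with sums of 4.59 to 13.9 CPM and 2.75 to 19.7 CPM, and Ptprc itself was at 0 in the former and at most 0.828 CPM downstream. No endothelial marker passed the test, with sums of 1.08 to 20.7 CPM and 1.12 to 86.3 CPM. The part of these cells in the results was not tested.

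Each population was also set against the mean of the other 7. SSC had 7 members higher (11.9% of all genes) and 13 lower (11.8%), led by Sfrp5 (2.98 on the log2 scale) and Frzb (2.68) and by Wnt10b (-2.54) and Wnt9a (-2.19). In pBCSP, 5 members were higher (9.59%), led by Sfrp5 (3.43) and Lef1 (1.91), and 7 lower (8.38%), led by Sfrp4 (-2.30). In BCSP, 12 were higher (12.7%), among them Frzb (2.31), Wnt4 (2.22), Axin1 (1.34) and Ctnnb1 (1.10), and 14 lower (12.8%), among them Wnt9a (-3) and Dkk2 (-2.53). PCP had 14 members higher (12.9%), led, apart from the low Wnt6, by Sfrp4 (3.44), Wnt10b (2.18) and Wnt5a (2.12), and 4 lower (5.07%), which were Sfrp5, Fzd9, Frzb and Wif1. THY had 10 higher (10.8%), led by Sfrp4 (2.63), Wnt9a (2.13) and Dkk2 (2.11), and 7 lower (5.75%), led by Sfrp5 (-3.15) and Frzb (-3.05). BLSP had 14 higher (9.39%), led after the low Wnt6 by Wnt5a (2.15), Sfrp2 (1.90) and Fzd1 (1.84), and 3 lower (4.57%), which were Frzb, Wif1 and Fzd9. 6C3 had 7 higher (8.31%), led by Wif1 (1.57) and Lrp5 (1.34), and 6 lower (3.85%), led by Sfrp5 (-2.43) and Wnt5a (-1.43). HEC had 6 higher (6.37%), with Wif1 (1.40), Wnt9a (1.19) and Fzd9 (1.15) after the near-0 Sost, and 10 lower (2.88%), led by Sfrp5 (-3.06) and Sfrp4 (-2.29).

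Outside the 50 members, 62 of 69 further genes of the pathway were tested between the stem and progenitor and the downstream populations, and 14 were higher and 25 lower. The shares of all genes are those given above for this contrast. Of the 10 with the largest difference, 6 were at or near 0 in both libraries of a stem or progenitor population and get no fold. Among these the ligand genes Wnt2 and Wnt16 reached a mean of 13.6 CPM in THY and 9.94 CPM in PCP, Dkkl1 6.73 CPM in HEC, and the R-spondin gene Rspo2, at 0.0664 and 0.0696 CPM in SSC, 22.2 CPM in THY, while Sp5 and Celsr1 stayed under 2 CPM on average in every population. The other 4 were the Dishevelled inhibitor Nkd2 (-3.38 ± 0.15), Notum, which removes the lipid from Wnt ligands (1.77 ± 0.12), Kremen2 (1.70 ± 0.64) and the formin gene Daam1 (-1.56 ± 0.15). Kremen2 was low, at 0.45 to 3.85 CPM in the stem and progenitor libraries and 0 to 1.30 CPM downstream, with overlap (edgeR adjusted p = 0.0368).

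For each WT population the m6A signal was read as IP over input on the log2 scale, and a gene was called m6A-tagged, by the rule of the study, at a value above 1 with an unadjusted edgeR p under 0.05. By this rule 11 of 48 tested members were tagged in SSC (10.4% of all genes tested), 13 of 47 in pBCSP (12%), 7 of 47 in BCSP (6.67%), 9 of 49 in PCP (10.6%), 14 of 48 in HEC (13.5%), 13 of 48 in 6C3 (14.5%), 12 of 47 in BLSP (12.4%) and 14 of 46 in THY (12.4%). In all, 20 of 50 members were tagged in at least 1 population, as were 26.2% of the 21298 genes tested in at least 1. They were 7 of 13 receptors, 3 of 4 genes of receptor turnover, 5 of 9 cytoplasmic genes, 2 of 4 nuclear factors, 1 of 8 ligands, 2 of 10 antagonists and none of the 2 secretion genes. Since p is unadjusted here, a stricter rule of adjusted p left 1 member tagged in all 8 populations in place of 4.

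Of 46 members tested in all 8 populations, the 4 tagged in each were Fzd8, Ryk, Lgr4 and Tcf7l1, and 2.78% of the 13471 genes tested in all 8 were tagged in each. Lgr4 had its highest IP over input values in SSC (2.56) and pBCSP (2.28), with 1.81 in BCSP and 1.5 to 2.12 downstream. Ryk, an atypical Wnt receptor, lay between 1.39 and 1.84, and Tcf7l1 between 1.44 and 2.2. Fzd8 reached 3.92 in 6C3, on a low mRNA level. Znrf3 and Fzd2 were tagged in 7 populations, Gsk3a, Apc and Axin1 in 6, and Tcf7l2, Dvl1 and Gsk3b in 5. Znrf3 missed the threshold only in 6C3 (0.56), and Gsk3b (0.25) and Tcf7l2 (0.48) had their lowest value there, where the first input library held all 3 high. Rnf43 (6C3) and Dkk1 (SSC) were each tagged in 1 population at near-0 mRNA.

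A value below 0 in all 8 populations was found in 13 of these 46 members, 5 of them antagonists, and in 29.6% of all genes tested in all 8. Wif1, the most abundant member, lay between -1.11 and -0.79 on the log2 scale. Dkk3 lay between -1.70 and -1.08, Sfrp2 between -1.42 and -0.90, and Frzb between -0.84 and -0.15. The others were Sfrp4, Wnt9a, Wnt11, Porcn, Fzd9, Ror2, Lgr5, Dvl2 and Lef1. The library kit does not mark strand, so where another gene overlaps on the other strand the reads cannot be told apart, in mRNA and in IP. 9130221H12Rik shares 28.3% of the exon bases of Gsk3a, Acadvl 18.3% of those of Dvl2, Gm38058 17.8% of those of Fzd5, Gm26771 16.1% of those of Sfrp2, Ulk4 14.6% of those of Ctnnb1 and Gm43352 13.7% of those of Lef1. In Wnt5a, Wnt11, Fzd6, Dvl1, Axin2 and Tcf7l1 such an overlap takes 0.721 to 8.8%.

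**Figure D3:**
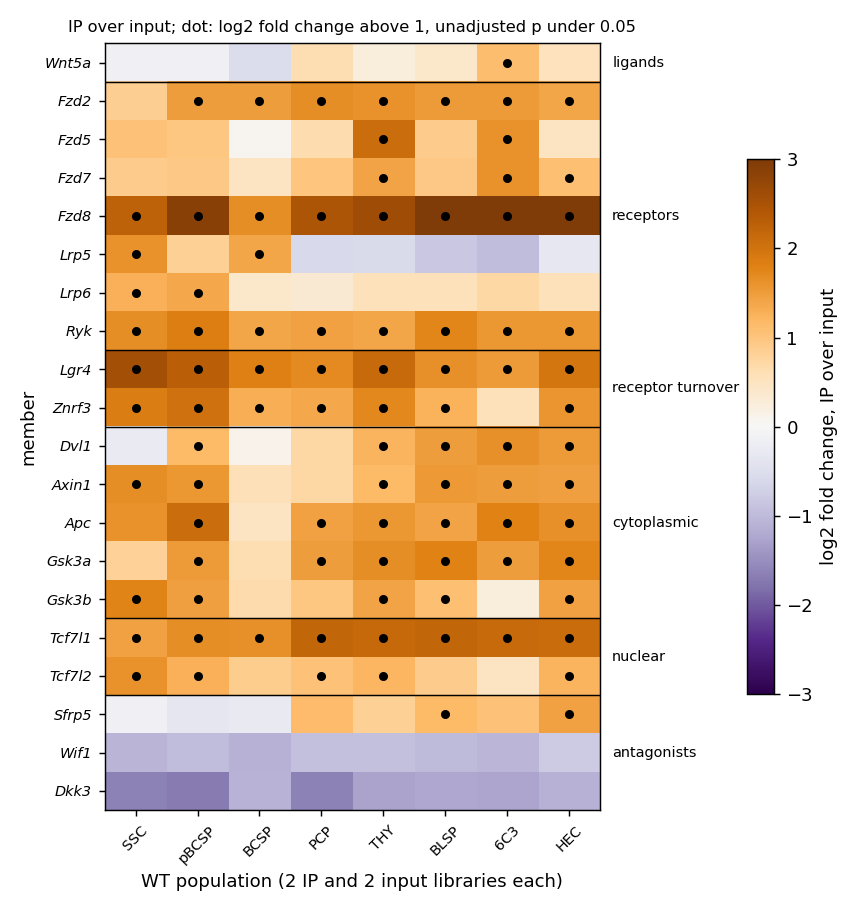
IP over input on the log2 scale (colour, orange above 0 and purple below) in each WT population (columns, 2 IP and 2 input libraries each) for 18 members tagged in at least 1 population, without the near-0 Rnf43 and Dkk1, and for the 2 most abundant antagonists, Wif1 and Dkk3. A dot marks the call. Fzd8, Ryk, Lgr4 and Tcf7l1 have dots in every column, and Lrp5 is orange in SSC, pBCSP and BCSP only.

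METTL3 methylates adenosines in a short consensus, most often GGACT, and its sites gather around stop codons. The motif was searched on the sense strand of 1 coding transcript per gene, the one of longest coding sequence in GENCODE vM21 (GRCm38). Within 200 bases of the stop codon it stood in 36.2% of 20684 genes and in 22 of the 50 members, namely in 9 of the 20 tagged and 13 of the 30 other members. Its median density was 1.02 per kb over all genes, 1.43 over tagged and 1.07 over other members. The motif nearest the stop codon is shown for 5 tagged members and, for comparison, for 3 members with IP over input values below 0, in 21 bases with the motif in capitals.
Lrp5 (coding, chr19:3585030-3585050, minus strand): ccctgcacGGACTcgtcctga
Lrp6 (coding, chr6:134450786-134450806, minus strand): ccctgcacGGACTcctcctga
Axin1 (coding, chr17:26195047-26195067, plus strand): gaaaaggtGGACTgagcactg
Lgr4 (3′ UTR, chr2:110012604-110012624, plus strand): tctgggaaGGACTtgtgtaat
Tcf7l1 (3′ UTR, chr6:72627317-72627337, minus strand): ctgtctcgGGACTccaagtag
Wnt9a (3′ UTR, chr11:59331401-59331421, plus strand): agcggtgtGGACTttgcacac
Frzb (3′ UTR, chr2:80413321-80413341, minus strand): acacccacGGACTcccttcta
Wif1 (coding, chr10:121090171-121090191, plus strand): gccctcctGGACTcgagggag
In the co-receptor paralogs Lrp5 and Lrp6 the motif begins 10 bases before the stop codon, in Axin1 4 bases before it, and in Lgr4 and Tcf7l1 87 and 33 bases after it, counted from the first base of the stop codon. Wnt9a and Frzb hold it 36 and 31 bases after that base, while the only motif of Wif1 lies 339 bases before it. Lrp5 holds 17 motifs in 5161 bases, 3.29 per kb. A match is a description of the letters and not a mapped m6A site.

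The IP to input ratio differed among the 8 WT populations in 3 of 50 members at an edgeR adjusted p under 0.05 (0.485% of 25365 genes tested), all of them receptors: Fzd1 (adjusted p = 0.00483), Fzd9 (0.0133) and Lrp5 (0.0395). With IP and input libraries paired by replicate, 9 members differed, and no share of all genes is given for fits with this pairing. Between SSC, pBCSP and BCSP and the downstream populations it was higher in 7 members (3.06% of all genes) and lower in 1 (1.77%), or in 3 with the pairing. The 7 were 5 receptors, the ligand gene Wnt5b and Sfrp1, and the 1 was Sfrp5. The median difference was 0.13 over the members and -0.08 over all genes. Mitochondrial transcripts took 4.53 to 9.1% of IP counts downstream and 1.56 to 2.92% in the stem and progenitor libraries, and their part in the ratios was not tested.

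Lrp5 changed sign between the groups. Its log2 ratios were positive in SSC (1.95 and 1.30), pBCSP (0.56 and 1.05) and BCSP (1.46 and 1.42). They were negative in HEC (-0.41 and -0.41), 6C3 (-1.27 and -0.66), BLSP (-1.20 and -0.77), THY (-0.61 and -0.76) and PCP (-0.65 and -0.65). The groups did not overlap, and the difference was 2.07 ± 0.32 (edgeR adjusted p = 0.000209). Its mRNA went the other way, so the populations with the higher ratio had the lower Lrp5 mRNA, and the ratio and the mRNA share the input libraries.

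Fzd1 ratios in SSC (0.15 and 1.55), pBCSP (-0.94 and 0.34) and BCSP (0.09 and 1.38) lay above those of -2.69 to -1.30 in the 10 downstream pairs. The groups did not overlap, and the difference was 2.29 ± 0.29 (edgeR adjusted p = 2.35e-05). Fzd4 (1.71 ± 0.32, edgeR adjusted p = 0.0015) and Fzd9 (1.6 ± 0.23, edgeR adjusted p = 0.000113) also did not overlap. The Fzd9 ratio was below 0 throughout, at -2.12 to -0.77 in the stem and progenitor pairs and -3.68 to -2.36 downstream. Of the antagonists, Sfrp1 was higher by 1.39 ± 0.23 (edgeR adjusted p = 0.000576). In mRNA, Fzd1 (-1.43 on the log2 scale), Fzd4 (-1.18) and Sfrp1 (-0.64) were lower in SSC, pBCSP and BCSP, opposite to their ratios. Fzd9 (0.66) and Ror2 (0.51) were higher there in both. Ratio and mRNA share the input libraries, and the part of IP and of input in these differences was not tested. Sfrp5 had negative ratios in SSC (-0.17 and -0.19), pBCSP (-0.48 and -0.12) and BCSP (-0.23 and -0.23) and ratios of 0.36 to 1.89 downstream, with no overlap and a difference of -1.25 ± 0.34 (edgeR adjusted p = 0.0311). Sfrp5 was thus higher in mRNA and lower in ratio in SSC, pBCSP and BCSP, and its downstream mRNA was low (2.58 to 47.2 CPM). Without the first SSC input library the Sfrp5 difference was -1.03 (edgeR adjusted p = 0.0627). The differences of Wnt5b (1.52 ± 0.39, edgeR adjusted p = 0.0205) and Ror2 (1.10 ± 0.30, edgeR adjusted p = 0.0262) overlapped between the groups. Wnt5b lost its call without the second input library of BCSP, SSC or THY (1.25 to 1.36, edgeR adjusted p from 0.0532 to 0.088), and Ror2 in 17 of 32 fits that left out 1 library (0.71 to 1.09, edgeR adjusted p from 0.0512 to 0.221). Of 67 further pathway genes tested, 8 were higher and 1 lower, among them Tle1, a corepressor (1.29 ± 0.24), Csnk1g3, a casein kinase (1.14 ± 0.20), Pygo2 (1.09 ± 0.24), Kremen1 (1.07 ± 0.25), Csnk1e (1.00 ± 0.21), Tle3 (0.98 ± 0.24), Csnk1d (0.63 ± 0.17) and Myc (0.57 ± 0.15). The shares of all genes are those given above for this contrast of ratios.

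**Figure D4:**
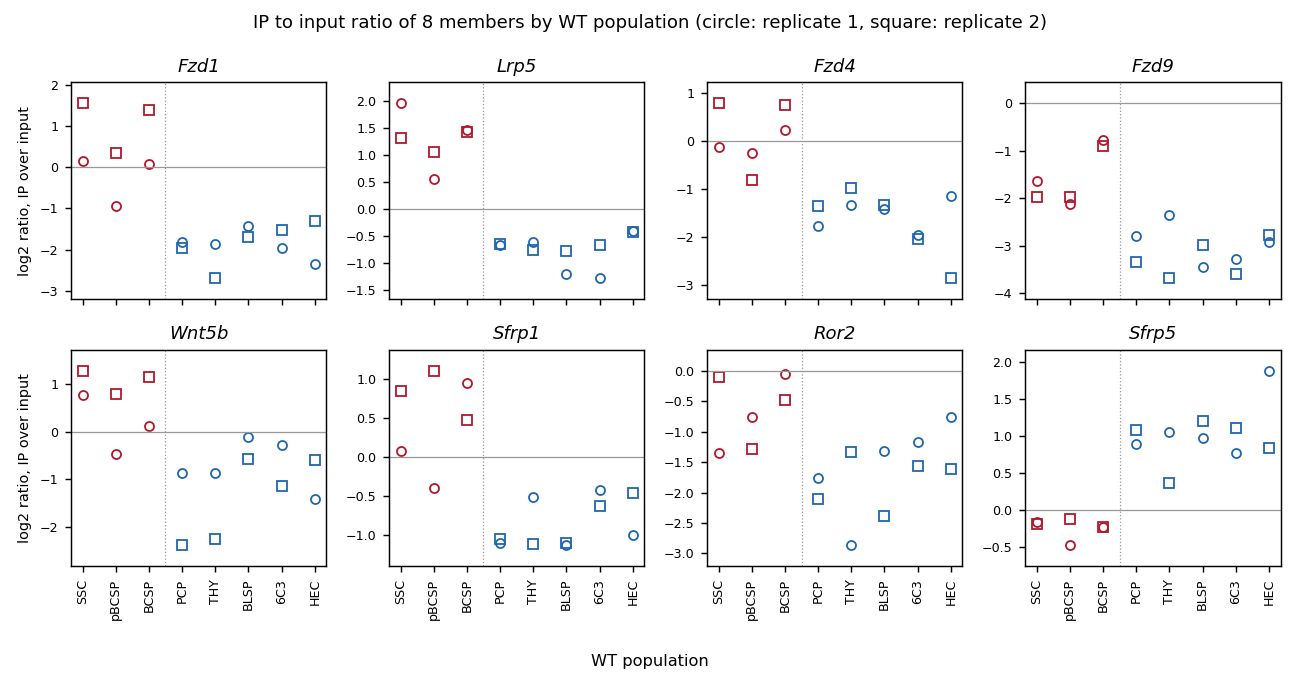
log2 IP to input ratio (y axis) of the 8 members that differed, by WT population (x axis), with 1 point per replicate (circle for 1, square for 2), red for SSC, pBCSP and BCSP and blue for the downstream populations. In Lrp5 all red points lie above 0 and all blue points below, and in Sfrp5 the blue points lie above the red.

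Between the libraries labelled Mettl3cko and WT, few members differed in mRNA. Within SSC, pBCSP and BCSP, at 2 against 2 libraries, no member passed an edgeR adjusted p of 0.05 in either direction, as 0% of all genes did. At an unadjusted edgeR p under 0.05 there were 10 of 48 members in SSC (14.7% of all genes), 6 of 47 in pBCSP (8.37%) and 6 of 47 in BCSP (13%), and DESeq2 called 3, 0 and 1. With a log2 fold change beyond 0.5 added, the rule of the study, 4 were higher (6.96%) and 5 lower (7.07%) in SSC, 3 higher (3.88%) and 3 lower (4.48%) in pBCSP, and 1 higher (7.22%) and 5 lower (5.72%) in BCSP. Of smallest p were, in SSC, Dkk3 (log2 fold change -0.87), Ror2 (0.83), Wif1 (-1.39), Wls (-0.62) and Wnt6, which had no counts in Mettl3cko SSC and under 1 CPM in WT SSC. In pBCSP they were Dkk3 (-0.83), Dvl2 (-0.94), Dkk2 (1.54), Lef1 (0.65) and Axin1 (0.81). In BCSP they were Apc (-1.37), Dvl1 (-1.20), Fzd8 (-1.94), Dkk2 (2.42) and Wif1 (-1.13). None of these values passed the adjusted threshold. For the DESeq2 calls, here and below, no share of all genes is given.

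On the mean of the 3 populations, in 1 fit of 12 input libraries, 1 of 48 members was higher in Mettl3cko (3.75% of all genes tested) and 2 were lower (2.72%). Wif1 was lower in each population. It held 878 and 377 CPM in Mettl3cko SSC against 1937 and 1321 in WT, 798 and 294 against 1313 and 1307 in pBCSP and 886 and 328 against 1295 and 1363 in BCSP. All 6 Mettl3cko libraries lay below all 6 WT libraries, the second Mettl3cko library was the lower of its pair in each population, and the mean log2 fold change was -1.25 ± 0.30 (edgeR adjusted p = 0.0295). The call was lost without the second Mettl3cko SSC library (-1.09, edgeR adjusted p = 0.0595) and without the first WT SSC library (-1.15, edgeR adjusted p = 0.0553).

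Lef1 held 102 and 107 CPM against 75.6 and 64.9 in SSC, 168 and 133 against 100.5 and 92.6 in pBCSP and 68.5 and 61.8 against 34.5 and 55.1 in BCSP. In each population both Mettl3cko libraries lay above both WT libraries, and the mean log2 fold change was 0.58 ± 0.14 (edgeR adjusted p = 0.0268). Without any 1 of 7 libraries it was 0.485 to 0.605 with an edgeR adjusted p of 0.0522 to 0.092. These were both Mettl3cko SSC, the second WT SSC, both WT pBCSP and the first WT and the first Mettl3cko BCSP libraries. Dvl2 held 21.7 and 25.9 CPM against 37.1 and 33.0 in SSC, 16.9 and 21.1 against 32.3 and 40.6 in pBCSP and 15.8 and 21.3 against 20.9 and 28.4 in BCSP. The BCSP libraries overlapped, and the mean log2 fold change was -0.63 ± 0.15 (edgeR adjusted p = 0.0318). Without any 1 of 8 libraries it was -0.68 to -0.55 with an edgeR adjusted p of 0.0587 to 0.11, namely all 4 SSC libraries, the first Mettl3cko and the second WT pBCSP and the first Mettl3cko and the second WT BCSP libraries. Next came Dkk3 (-0.47 ± 0.16, edgeR adjusted p = 0.0939) and Gsk3b (0.53 ± 0.18, edgeR adjusted p = 0.0977). Dkk3 libraries did not overlap in SSC (38.8 and 48.7 CPM against 80.2 and 77.5) and pBCSP (136 and 152 against 253 and 261) and overlapped in BCSP (97.8 and 58.0 against 51.7 and 79.0). Gsk3b was at 418 and 189 CPM in Mettl3cko pBCSP, where the first library stood apart.

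**Figure D5:**
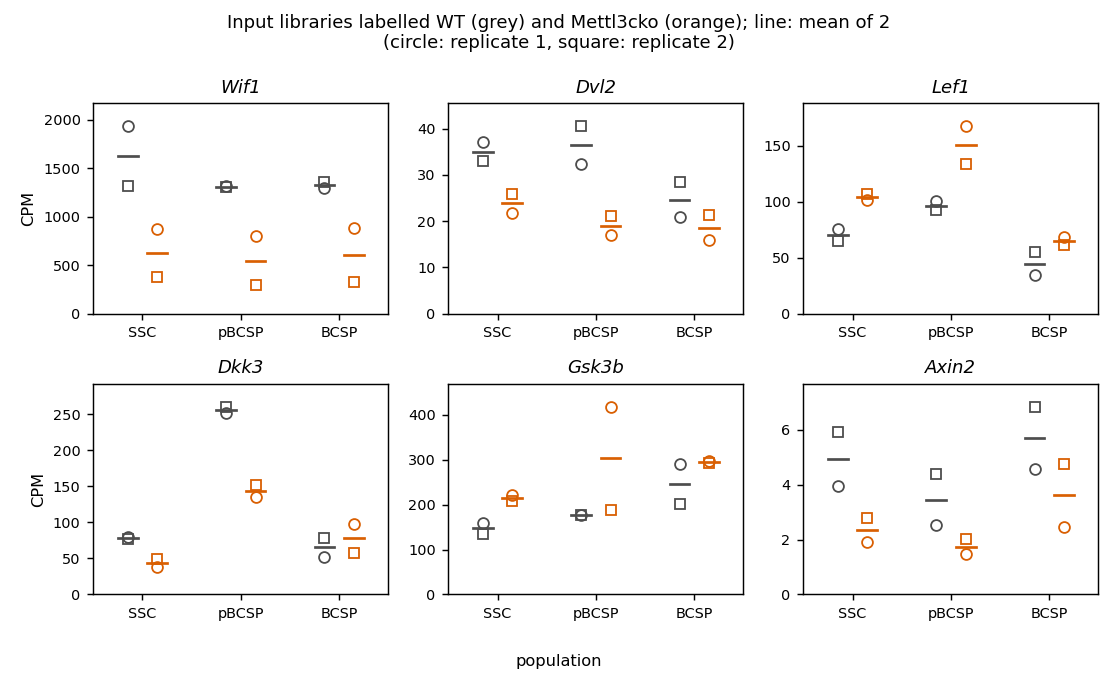
mRNA level (CPM, y axis from 0) of 6 members in SSC, pBCSP and BCSP input libraries labelled WT (grey) and Mettl3cko (orange), with 1 point per library (circle for replicate 1, square for 2) and a line at the mean of 2. Wif1 lies at 294 to 886 CPM in Mettl3cko and at 1295 to 1937 CPM in WT, and Axin2 is drawn as a target gene that did not pass the test.

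The size of the Mettl3cko change was not shown to differ between the populations: no member passed an edgeR adjusted p of 0.05 (0% of all genes), 6 of 48 had an unadjusted edgeR p under 0.05 (4.5% of all genes), and DESeq2 called 2. Axin2 was below WT in the mean of each population but did not pass the test (-0.90 ± 0.34, edgeR adjusted p = 0.136). The median log2 fold change was -0.15 over the members and -0.05 over all genes. Of 59 further pathway genes tested, 5 were lower and 1 was higher: Lgr6, an R-spondin receptor gene (-1.68 ± 0.22), Notum (-1.10 ± 0.13), Wnt7b (-0.93 ± 0.24), Nkd1 (-0.90 ± 0.17), Tle1 (-0.87 ± 0.20) and Myc (0.43 ± 0.11). The shares of all genes are those given above for the mean of the populations. Other cell markers moved in the same libraries. The 4 tendon and joint markers summed to 485 to 895 CPM in Mettl3cko and 1240 to 3270 CPM in WT, with Prg4 lower and the other 3 not past the test. Of the 4 osteoclast markers Ctsk was lower (-0.69 on the log2 scale) and the other 3 did not pass the test, with sums of 64.6 to 114 CPM against 95.3 to 139 CPM. Of the erythroid markers 3 of 5 tested were higher, summing to 9.72 to 50.4 CPM against 0.705 to 5.54 CPM. No tested chondrocyte, osteoblast, leukocyte, endothelial or muscle marker passed the test, and the chondrocyte sum was 55300 to 110000 CPM against 88300 to 104000 CPM. Their part in the changes of Wif1, Lef1 and Dvl2 was not tested.

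In the IP to input ratio, no member passed an edgeR adjusted p of 0.05 between Mettl3cko and WT in SSC, pBCSP or BCSP, as 0% of all genes did. TMM scales each library to the bulk of its genes. A loss of m6A shared by most genes, such as the study reports by dot blot, could therefore not be read from these ratios. At an unadjusted edgeR p under 0.05 there were 7 members in SSC (14.5% of all genes), 3 in pBCSP (11.9%) and 4 in BCSP (10.3%), and DESeq2 called 4, 1 and 1. Of smallest p were Tcf7l2 (-1.55), Fzd9 (1.6), Dvl1 (2.75), Porcn and Wnt2b in SSC, Gsk3b (-1.79), Lrp5 (2.03), Znrf3 (-1.34), Sfrp4 and Wnt9a in pBCSP, and Fzd8 (2.63), Wnt5b (1.5), Dvl3 (1.78), Lgr5 and Wnt9a in BCSP. Those without a value had IP counts at or near 0 in a Mettl3cko library.

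On the mean of the 3 populations no member was higher (0.643% of all genes) and 1 of 49 was lower (3.3%), which was Gsk3b. At an unadjusted edgeR p under 0.05, 2 members were higher and 4 lower, and 3453 of 20360 genes tested passed in either direction. The Gsk3b ratio was 0.83 and -0.11 in Mettl3cko SSC against 1.39 and 2.08 in WT, -1.04 and 0.70 against 1.47 and 1.46 in pBCSP and 0.36 and 0.72 against 0.43 and 1.04 in BCSP. SSC and pBCSP did not overlap and BCSP did, and the mean difference was -1.06 ± 0.29 (edgeR adjusted p = 0.0462). The call was lost in 19 of 24 fits that left out 1 library (-1.19 to -0.82, edgeR adjusted p from 0.053 to 0.114), and with IP and input paired it was -1.07 (edgeR adjusted p = 0.113). Gsk3b IP levels were 377 and 185 CPM in Mettl3cko SSC against 426 and 562 in WT, and 190.1 and 293 against 500.0 and 486 in pBCSP. By p, Wnt9a was next (edgeR adjusted p = 0.0718), whose Mettl3cko IP counts were near 0 and which gets no value, and then Tcf7l2 (-0.97 ± 0.30, edgeR adjusted p = 0.0834), followed by Fzd9 (1.01 ± 0.42) and Fzd1 (-1.17 ± 0.50), none of which passed the test. The median difference was -0.07 over the members and -0.39 over all genes. Replicate IP libraries of Mettl3cko correlated at 0.803 to 0.844 in log2 CPM across genes, against 0.892 to 0.924 in WT, so differences of ratio were measured less precisely than those of mRNA.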

How the data were processed

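Gene counts were deposited by the authors as 1 table of raw counts over 44 libraries of SLIM-seq, made from Smart-seq2 type libraries. Per the labels and the study's methods, reads were trimmed with fastp 0.20.1, aligned to GRCm38 with HISAT2 2.2.1 and counted with featureCounts 2.0.1. The annotation and strand setting are not given in the sources used here. Tables of the authors' own comparisons hold fold changes and p-values and were not used. Of 46959 entries, 128 with date-like names no longer named a gene and were left out.

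WT input libraries held 19795666 to 44046651 counts, WT IP libraries 16480027 to 35856651, Mettl3cko input libraries 30050178 to 35325482 and Mettl3cko IP libraries 22056571 to 33126857. Samples were grouped by title. All p-values across genes come from the quasi-likelihood test of edgeR 4.0.16 (R 4.3.3) with TMM scaling, filterByExpr and Benjamini-Hochberg adjustment over all genes tested, with a threshold of 0.05, and SE is the fold change over the root of F. CPM is TMM-scaled over the 22 input or 22 IP libraries, and per kb uses the exon union of GENCODE vM21. The log2 IP to input ratio of a replicate uses a prior count of 2. Ratios were tested as an interaction of library kind and group, without pairing IP and input libraries in the main fit. For ratios, the replicate block added that pairing. IP and input libraries of 1 number are paired, since the study split the same sorted cells (correlation of deviations 0.0178 to 0.237), while numbers shared across populations or genotypes were taken to carry no pairing (-0.184 to 0.117 between WT populations and -0.00328 to 0.0056 between genotypes). These ranges overlap, so the correlations alone do not show which libraries are paired. Replicates differed by more than sampling noise in every pair.

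The 50 members and all gene lists were chosen with earlier results of these data known. All members were counted in each comparison. Named with values were the called members, up to 25 by size, and those of smallest p where under 5 were called. In simulated counts with 100 changed genes per size, 4-fold changes were found in 78% for the stem and downstream contrast, 65% for Mettl3cko SSC, 68% for the mean of Mettl3cko and 38% for the ratio between stem and downstream, and 2-fold changes in 58%, 10%, 39% and 20%. For IP over input in SSC, 42% of 4-fold and 0% of 2-fold changes were found. For the mean Mettl3cko difference in ratio, 21% of 4-fold and 2% of 2-fold changes were found. Alternatives were DESeq2 1.42.0, its size factors, no filter on low counts, a replicate block, the call rules of the study, and leaving out each library.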

Additional observations from a re-analysis of the deposited data

Results flagged for a closer look

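Under the same IP over input contrast, 8 members differed between SSC, pBCSP and BCSP and the downstream populations by the edgeR interaction test, and these are the differences that single them out. The log2 ratio was higher in SSC, pBCSP and BCSP for Fzd1 by 2.29 ± 0.29, Lrp5 by 2.07 ± 0.32, Fzd4 by 1.71 ± 0.32, Fzd9 by 1.6 ± 0.23, Wnt5b by 1.52 ± 0.39, Sfrp1 by 1.39 ± 0.23 and Ror2 by 1.10 ± 0.30. It was lower for Sfrp5, at -1.25 ± 0.34. In 6 of the 8 the 6 stem and progenitor pairs did not overlap the 10 downstream pairs, and in Wnt5b and Ror2 they did. The 8 were picked by a test on these same ratios, so their separation adds no support. The share of all genes without overlap in the ratio is not given. Groups of 2 libraries were too small for a check of single stray values.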

How the results depend on the processing

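Among the single-gene results followed, 1030 values under other settings kept direction and side of the threshold, 45 lost the call and 40 gained it. In this count 1 reversed, Wnt5a, at 0.66 against 6C3 and HEC alone, a contrast chosen after seeing the data. Fzd9, not in that count, also turned sign in this contrast, with a call on both sides. DESeq2 called 3 members in Mettl3cko SSC mRNA and 1 in BCSP, 4 in the SSC ratio and 1 each in the pBCSP and BCSP ratios, 2 higher in the Mettl3cko mean, 3 lower in the mean ratio, 2 with unequal Mettl3cko effect, and 7 ratios across the 8 populations and 3 lower downstream contrast ratios. The study's call rule gave 9, 6 and 6 members in SSC, pBCSP and BCSP mRNA, and 2 higher and 5 lower in the mean. Without the filter on low counts there were 2, 2 and 1 members in the same populations, 2 in the pBCSP ratio, 3 higher in the mean, 3 lower in the mean ratio, 1 with unequal effect, 7 ratios across populations and 3 lower stem ratios, and DESeq2 size factors gave 2 of the latter. An adjusted-p rule left 1 member tagged in all 8. With the replicate block there were 1 member in Mettl3cko SSC mRNA (Wif1, -1.49), 2 higher in the mean, 0 lower in the mean ratio, 9 ratios across populations and 3 lower stem ratios. Leaving out 1 library gave 29 to 34 members across the 8 populations, 13 to 18 higher and 17 to 20 lower in SSC, pBCSP and BCSP, 18 to 23 tagged at least once and 3 to 5 in all 8. It gave 1 to 7 ratios across populations, 5 to 9 higher and 0 to 3 lower stem ratios, and 0 to 3, 0 to 5 and 0 to 1 members in Mettl3cko SSC, pBCSP and BCSP mRNA. The Mettl3cko mean held 0 to 3 higher and 0 to 4 lower, the population term 0, the SSC, pBCSP and BCSP ratios 0 to 13, 0 to 5 and 0 to 3, and the mean ratio 0 to 1 higher and 0 to 5 lower. The 13 came without the first Mettl3cko SSC IP library. For the counts under other settings or with 1 library left out, no share of all genes is given. The cause of these changes was not tested, and with 2 libraries a group small changes were rarely detectable.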
